A study of Drosophila melanogaster with 8 samples.

Results

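Gene expression in sorted clock neurons of the fly brain was compared between circadian time (CT) 12, the end of the subjective day, and CT6, its middle. The comparison uses the 4 libraries whose labels name these times, 2 at CT12 and 2 at CT6, of 8 libraries in all. The remaining 4 libraries entered the model solely to estimate the spread between replicates. In the flies of both times, Clk-GAL4 drove a nuclear green fluorescent protein (UAS-GFP-NLS) together with an RNA interference construct against mor (UAS-mor-RNAi, BDSC#34919). The CT12 and CT6 flies were therefore of 1 genotype and carried the same knockdown, and libraries from control flies were not analysed here. Adult flies were kept in cycles of 12 h light and 12 h dark for 5 days and taken on day 2 of constant darkness. About 2000 live fluorescent cells were sorted per sample from adult brains, and their polyadenylated RNA was made into cDNA with a low-input kit. Age and sex are not stated in the labels, and neither is whether the replicates came from separate flies, so each p-value measures only the spread between these libraries. The driver confines marker and knockdown to cells that express it, which includes clock neurons of many kinds and need not exclude other cells.

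In the fly clock, the transcription factors CLOCK and CYCLE drive the genes period and timeless, whose proteins later return to the nucleus and repress CLOCK and CYCLE. In interlocked loops the same pair drives vrille, Pdp1 and clockwork orange, and VRILLE represses Clk while PDP1 has been linked to its activation. In wild-type heads, transcripts driven by CLOCK accumulate over the second part of the day, and Clk transcripts run in the opposite phase. Clock neurons signal to each other and to the rest of the brain largely through neuropeptides, of which PDF is the best known. The step between CT6 and CT12 asks which transcripts of these neurons differ between the middle and the end of the subjective day while mor is targeted.

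Total estimated counts were 28447624 and 15006258 in CT12 replicates 1 and 2, and 28031483 and 21928087 in CT6 replicates 1 and 2. Values below are CPM, counts scaled to library size by the TMM method, which also corrects for composition, and are given for replicate 1 and then replicate 2. A count of 3, taken as the floor, equals 0.105 and 0.2 CPM in the CT12 libraries and 0.107 and 0.137 CPM in the CT6 libraries, for counting error only. The general neuronal genes elav and nSyb were well expressed, with 113 and 129 CPM at CT12, against 128 and 92.5 CPM at CT6 for elav. The glial gene repo stayed between 0.0646 and 0.714 CPM in the 4 libraries. Not all glial genes were that low. Gs2 read 130 and 37.5 CPM at CT12, against 64.2 and 40.2 CPM at CT6. The 12 glial markers listed summed to 327 and 197 CPM at CT12, against 169 and 170 CPM at CT6. The clock genes tim, Pdp1 and cry were well expressed, between 168 CPM (tim in CT6 replicate 2) and 869 CPM (Pdp1 in CT12 replicate 2). Other markers of clock neurons were lower. per lay between 17.3 and 35.5 CPM, Clk between 23.3 and 116 CPM and dimm between 22.3 and 36.2 CPM. Pdf, described below, varied widely and was low in CT6 replicate 1. The targeted gene mor (FBgn0002783, 3R 15968134 to 15972913), a scaffold component of the SWI/SNF-type remodeller named after Brahma, read 11.4 and 13.2 CPM at CT12, against 21.8 and 7.90 CPM at CT6, and the ranges overlap. Without control libraries these values do not measure the depth of the knockdown.

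The libraries of the same time did not resemble each other more than libraries of different times. Across 5766 well-expressed genes, log2 CPM correlated at 0.945 between the CT12 replicates and at 0.906 between the CT6 replicates, whereas CT12 replicate 2 and CT6 replicate 2 correlated at 0.961. CT12 replicate 2 and CT6 replicate 1 also leaned towards longer genes. Spearman's rho between effective transcript length and the difference of a library from the mean of the other 7 was, across these genes, -0.114 and 0.468 in CT12 replicates 1 and 2, against 0.684 and -0.223 in CT6 replicates 1 and 2. CT6 replicate 1 had the strongest of these leans, and it was low in several peptide transcripts described next. The main results that rest on it are given with and without it.

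Neuropeptide transcripts varied widely between libraries of the same time. Pdf, the transmitter of the ventral lateral clock neurons, read 8822 and 18007 CPM at CT12, against 89.3 and 37187 CPM at CT6. CT6 replicate 1 was thus the lowest and CT6 replicate 2 the highest of the 4, with both CT12 libraries between them. NPF, the neuropeptide F precursor of a subset of lateral neurons, read 1304 and 408 CPM at CT12, against 28.2 and 2748 CPM at CT6, with the same library again lowest. In bulk RNA, fewer cells of a type and less RNA per cell cannot be told apart. Peptides that are not confined to the clock network varied as widely, and these were named after their values were seen. Dsk, the drosulfakinin precursor, read 388 and 3267 CPM at CT12, against 0 and 901 CPM at CT6. Leucokinin (Lk) had 87.2 and 0.775 CPM in the CT12 libraries and 1021 and 7.85 CPM in the CT6 libraries. For Orcokinin the values were 944 and 2.84 CPM at CT12, against 5.03 and 146 CPM at CT6. For each of these 5 peptides the duplicates of at least 1 time lay further apart than the means of the times.

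**Figure D1:**
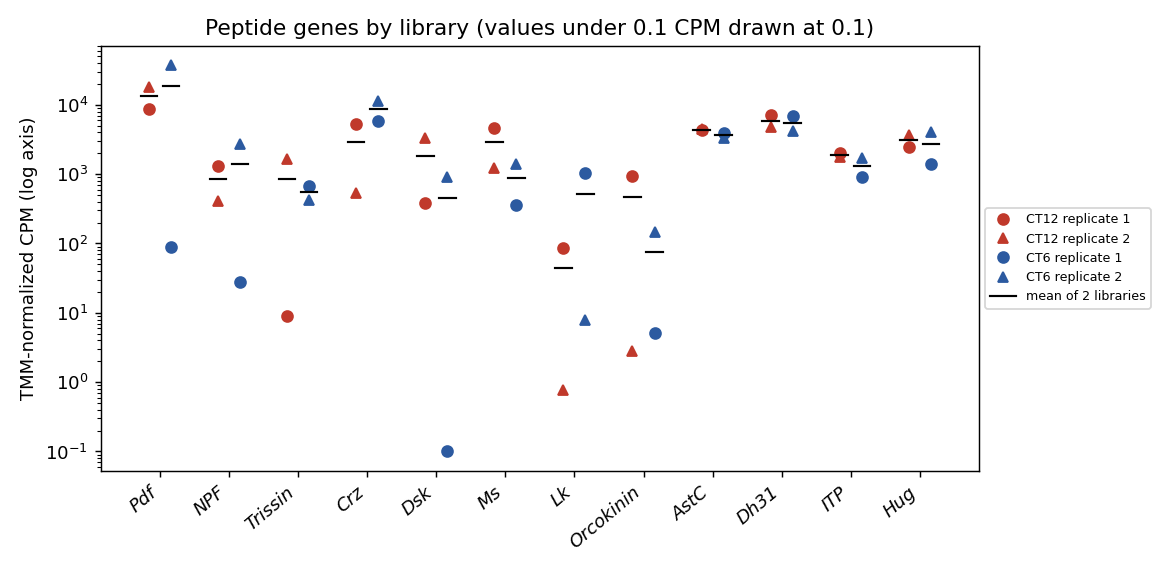
TMM-normalized CPM (log axis) of neuropeptide genes in each library, CT12 left of CT6, with circles for replicate 1, triangles for replicate 2 and bars at the mean of 2 libraries; values under 0.1 are drawn at 0.1. Pdf and NPF are lowest in CT6 replicate 1, at 89.3 and 28.2 CPM, while AstC lies close together in the 4 libraries.

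By edgeR's quasi-likelihood test, 0 of 9999 genes passed a Benjamini-Hochberg adjusted p of 0.05 between CT12 and CT6 in either direction, a background of 0%. At an unadjusted p under 0.05, edgeR placed 97 genes higher at CT12 (0.97% of those tested) and 123 lower (1.23%), 2.2% in all. With no difference between the times, a share of about 0.05 would be expected at this p, so these counts are no excess. On the same genes DESeq2 called 9 (0.09%), of which 4 were higher at CT12 (0.04%) and 5 lower (0.05%), and limma-voom called 0. The smallest edgeR adjusted p was 0.18, for E(spl)m6-BFM. It was 0.89 for SerT and for CG34351 and 0.92 for Trh, and 1 for the other genes named below. Genes are therefore described by their values and by whether both CT12 libraries lay above or below both CT6 libraries, that is, did not overlap. By that description 1027 genes (10.3%) were higher at CT12 and 1220 (12.2%) lower, 22.5% in all. With means at least 2-fold apart as well, 351 genes (3.51%) were higher at CT12 and 378 (3.78%) lower. An exact permutation of 2 libraries against 2 cannot give a two-sided p below 0.33, so the non-overlap itself is a description. With no difference, a share of about 0.33 would be expected not to overlap, so 22.5% is no excess either. Of the genes tested, 4840 (48.4%) had a fitted log2 change, CT12 minus CT6, above 0 and 5159 had one below 0. The median was -0.01, and log2 changes are given with their standard error.

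**Figure D2:**
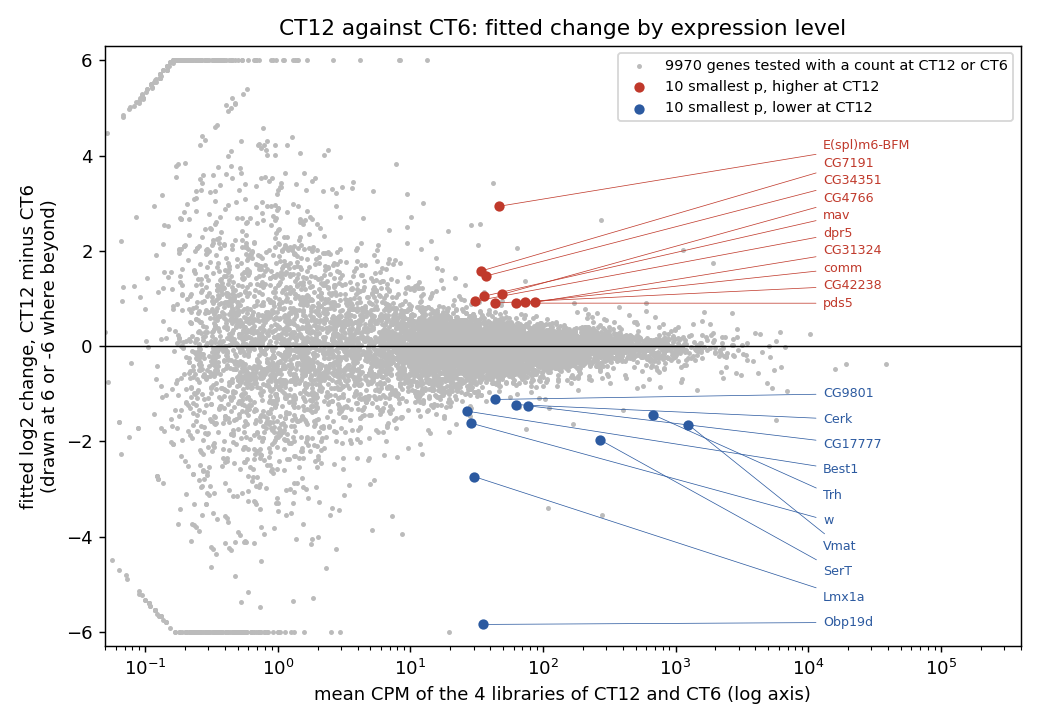
Fitted log2 change (CT12 minus CT6) against the mean CPM of the 4 libraries (log axis) for 9970 tested genes with a count at either time; red and blue mark the 10 genes of smallest p with non-overlapping libraries and a mean of at least 20 CPM that were higher and lower at CT12. E(spl)m6-BFM, at 2.94, is the highest of the red points, and the serotonin genes SerT, Trh, Vmat and the factor Lmx1a lie among the blue ones.

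The gene with the smallest p was E(spl)m6-BFM (FBgn0002632, 3R 26032911 to 26034047), a member of the Bearded family in the Enhancer of split complex, whose genes respond to Notch signalling. It read 87.8 and 78.3 CPM at CT12, against 11.2 and 10.5 CPM at CT6. The duplicates lay close together at both times, at 83.0 ± 6.73 CPM at CT12 and 10.8 ± 0.529 CPM at CT6 (mean ± SD, n = 2 each), and the means were 7.66-fold apart. The fitted log2 change was 2.94 ± 0.37 with an edgeR adjusted p of 0.18, and the DESeq2 adjusted p was 7.3e-11. When CT18 replicate 1 or CT18 replicate 2, which inform the spread alone, was left out, edgeR called the gene, with adjusted p of 0.0374 and 0.0299. Without CT6 replicate 1 its log2 change was 2.99 and without CT12 replicate 2 it was 3.02. The other tested genes listed with it did not separate the times. Of 16 genes listed for the Enhancer of split complex and the Notch pathway, 7 were expressed well enough to be tested. Another 8 had no count in the 4 libraries. E(spl)m6-BFM was the one whose libraries did not overlap (14.3% higher and 0% lower, beside 10.3% and 12.2% of all genes tested). It was named for its p, so this share is no result about the list. E(spl)m7-HLH, a transcriptional repressor of the same complex, read 1.27 and 3.94 CPM at CT12, against 9.81 and 0.571 CPM at CT6. Hairless (H), the antagonist of Notch target activation, read 6.87 and 16.1 CPM at CT12, against 18.9 and 12.0 CPM at CT6.

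The other genes of the 10 of smallest p that were higher at CT12 had smaller fitted changes. CG34351, named dcma in RefSeq (FBgn0085380, 2L 4694721 to 4722465), read 55.7 and 53.5 CPM at CT12, against 18.4 and 21.0 CPM at CT6, a log2 change of 1.47 ± 0.26. DESeq2 called it as well, with an adjusted p of 0.00368. comm, the sorting factor that lets axons cross the midline, read 83.7 and 107 CPM at CT12, against 47.7 and 53.2 CPM at CT6. dpr5, a member of a family of synaptic immunoglobulin proteins, read 39.3 and 41.1 CPM at CT12, against 19.9 and 22.0 CPM at CT6. These 3 genes differed little between duplicates, and both CT12 libraries lay above both CT6 libraries. mav, a ligand of the TGF-beta family, read 58.4 and 38.8 CPM at CT12, against 19.4 and 27.7 CPM at CT6. pds5, a regulator of the cohesin ring on chromosomes, had 74.0 and 89.6 CPM in the CT12 libraries and 44.7 and 42.9 CPM in the CT6 libraries. Their log2 changes were 1.05 for mav, 0.90 for pds5, 0.92 for comm and 0.94 for dpr5. The uncharacterized genes CG4766, CG7191 and CG42238 completed the 10 of smallest p in this direction, together with CG31324, which is described with the clock genes. CG7191 had the widest spread of these, at 74.1 and 27.7 CPM at CT12, against 16.4 and 17.8 CPM at CT6.

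DESeq2 called 2 more genes higher at CT12, both with 0 counts in the CT6 libraries. natalisin, the precursor of a peptide related to tachykinin, had 84 and 469 estimated counts at CT12 and 0 and 0 at CT6. Amy-p, an amylase, had 27 and 148 counts at CT12 and 0 and 0 at CT6. In CPM the CT12 values were 2.87 and 30.3 for natalisin and 0.923 and 9.56 for Amy-p, so the duplicates themselves were far apart, and edgeR gave an adjusted p of 1. gcm2, a transcription factor of glia and blood cells during development, was the reverse, with 0 and 0 counts at CT12 and 174 and 117 at CT6 (DESeq2 adjusted p 0.021).

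Trh, Vmat and SerT, which act in serotonin synthesis and transport, were 3 of the 5 most abundant genes that were at least 2-fold lower at CT12 without overlap, and none of them passed edgeR's adjusted threshold. Serotonin is made from tryptophan by tryptophan hydroxylase and dopa decarboxylase, packed into vesicles by the vesicular monoamine transporter and taken back up by the serotonin transporter. The list of serotonin genes was set up after these genes had been seen among those of smallest p. Trh, the tryptophan hydroxylase of neurons (named Trhn in RefSeq, FBgn0035187, 3L 1190384 to 1193173), read 364 and 364 CPM at CT12, against 1157 and 817 CPM at CT6. The log2 change was -1.44 ± 0.27, with an edgeR adjusted p of 0.92 and a DESeq2 adjusted p of 4.83e-05. SerT, the serotonin transporter (FBgn0010414, 2R 24404595 to 24411074), read 103 and 117 CPM at CT12, against 586 and 279 CPM at CT6, a log2 change of -1.97 ± 0.34. Its adjusted p was 0.89 by edgeR and 8.38e-06 by DESeq2. For both genes the CT12 duplicates lay within a narrow band below both CT6 libraries.

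Vmat, the vesicular monoamine transporter (FBgn0260964, 2R 13513132 to 13534251), is shared by serotonin and dopamine neurons and read 554 and 654 CPM at CT12, against 2854 and 937 CPM at CT6. Its log2 change was -1.65 ± 0.45 and DESeq2 gave an adjusted p of 0.0329. Lmx1a, a LIM homeodomain factor whose relative Lmx1b is required by serotonin neurons in the mouse (FBgn0052105, 3L 12329232 to 12335901), read 8.04 and 7.81 CPM at CT12, against 86.9 and 19.1 CPM at CT6. Its log2 change was -2.74 ± 0.63, with a DESeq2 adjusted p of 0.00852. CT6 replicate 1 was the highest library for all 4 genes. Without it the log2 changes were -1.17 for Trh, -1.34 for SerT, -0.64 for Vmat and -1.27 for Lmx1a. The sign was the same in each case, with the distance in Vmat and Lmx1a reduced most. Whether serotonin neurons were among the sorted cells was not tested.

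**Figure D3:**
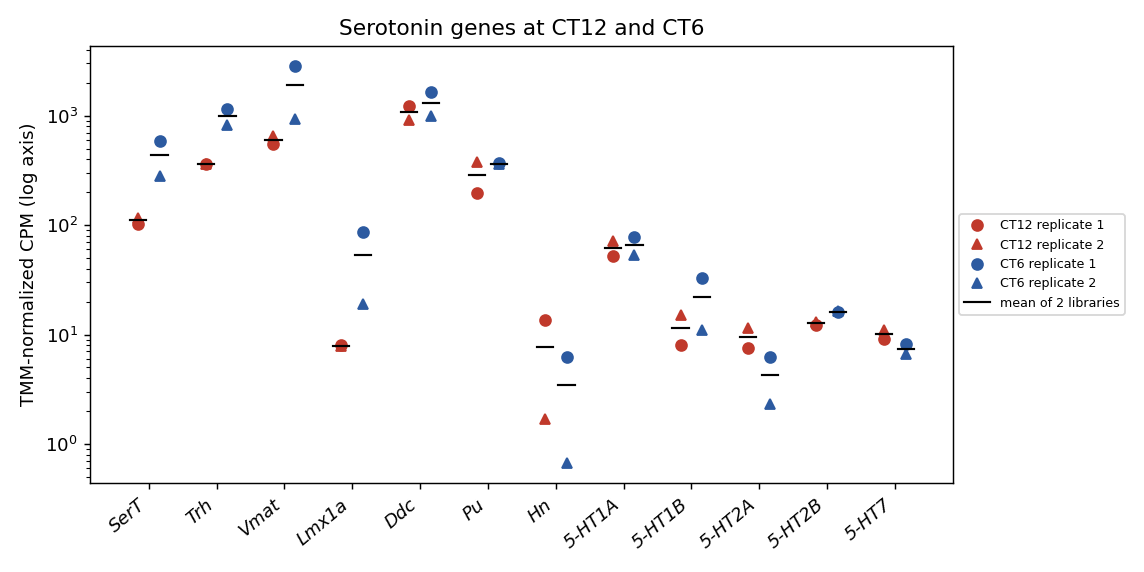
TMM-normalized CPM (log axis) of genes for serotonin synthesis, transport and reception and of the factor Lmx1a in each library, CT12 left of CT6. SerT, Trh, Vmat and Lmx1a are lower in both CT12 libraries than in both CT6 libraries, while Ddc, Pu and 5-HT1A overlap.

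Other genes of the monoamine pathway lay in both directions. Of the 11 serotonin genes tested, 4 had lower and 2 had higher non-overlapping values at CT12 (36.4% and 18.2%, against 12.2% and 10.3% of all genes tested), and 5 overlapped. The 4 lower ones include SerT, Trh and Vmat, which had been seen before the list was set up. The lower share is therefore no independent result about the list. The median log2 change of the list was -0.34, and without CT6 replicate 1 it was 0.06. Ddc, the decarboxylase that also serves dopamine synthesis, read 1221 and 919.9 CPM at CT12, against 1634 and 992 CPM at CT6. Pu, which makes the cofactor of the hydroxylases, had 198 and 379 CPM in the CT12 libraries and 367 and 361 CPM in the CT6 libraries. Neither separated the times. Among receptors, 5-HT2B was the fourth gene with lower non-overlapping values, at 12.2 and 13.1 CPM at CT12, against 16.0 and 16.3 CPM at CT6, a log2 change of -0.35. The higher ones were 5-HT2A, at 7.59 and 11.4 CPM at CT12, against 6.23 and 2.33 CPM at CT6, and 5-HT7, at 9.10 and 10.9 CPM at CT12, against 8.25 and 6.57 CPM at CT6. 5-HT1A overlapped, at 52.3 and 70.9 CPM at CT12, against 78.2 and 52.9 CPM at CT6. ple, the tyrosine hydroxylase, read 557 and 148 CPM at CT12, against 389 and 96.3 CPM at CT6, and the dopamine transporter DAT read 418 and 122 CPM at CT12, against 279 and 60.7 CPM at CT6. For both genes replicate 1 was the higher library at each time, and the times overlapped. Of 9 dopamine genes tested, Vmat was the one whose libraries did not overlap (11.1% lower, beside 12.2% of all genes tested).

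Among the clock genes, Pdp1 and cwo were higher at CT12 and Clk was lower. Of 8 core clock genes tested, 2 were higher without overlap (25%), 1 was lower (12.5%) and 5 overlapped. Of all genes tested, 10.3% were higher and 12.2% lower without overlap. The median log2 change of the core clock genes was 0.31. Over the libraries left out, that median ranged from 0.02 (without CT12 replicate 2) to 0.73 (without CT6 replicate 1). Pdp1, a PAR-domain transcription factor driven by CLOCK (FBgn0016694, 3L 7811458 to 7867369), read 705 and 869 CPM at CT12, against 529.7 and 309.6 CPM at CT6. cwo, which encodes the repressor clockwork orange, read 55.2 and 103 CPM at CT12, against 48.5 and 37.1 CPM at CT6. Clk (FBgn0023076, 3L 7763233 to 7775603) ran the other way, at 23.3 and 45.2 CPM at CT12, against 112 and 116 CPM at CT6. Both CT12 libraries lay above both CT6 libraries for Pdp1 and cwo and below them for Clk. The log2 changes were 0.91 ± 0.30 for Pdp1, 0.89 ± 0.38 for cwo and -1.74 ± 0.58 for Clk, each at an unadjusted p under 0.05 and an edgeR adjusted p of 1. The Clk means were 34.3 ± 15.5 CPM at CT12 and 114 ± 3.09 CPM at CT6 (mean ± SD, n = 2 each).

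tim, the partner of PERIOD, read 319 and 644 CPM at CT12, against 379 and 168 CPM at CT6. vri, the repressor vrille, read 154 and 369 CPM at CT12, against 226 and 80.5 CPM at CT6. For both genes CT12 replicate 2 was the highest and CT6 replicate 2 the lowest library, with the replicate 1 libraries between them and in the opposite order. The log2 changes of 0.82 ± 0.45 for tim and 0.77 ± 0.50 for vri depended on the library left out. Without CT6 replicate 1 they were 1.52 and 1.70, and without CT12 replicate 2 they were 0.22 and 0.01. CT12 replicate 2 was also the highest and CT6 replicate 2 the lowest library for cwo and Pdp1, whose log2 changes were 0.37 and 0.75 without CT12 replicate 2. Without CT6 replicate 2 the change of Pdp1 was 0.57. Clk was at -1.29 without CT12 replicate 1, at -1.77 without CT6 replicate 1 and at -2.29 without CT12 replicate 2.

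per itself, which encodes the repressor PERIOD, was low and did not separate the times, at 17.8 and 27.1 CPM at CT12, against 35.5 and 17.3 CPM at CT6. cry, the blue-light photoreceptor of clock neurons, was higher in replicate 2 at each time, at 262 and 745 CPM at CT12, against 359.6 and 822 CPM at CT6. cyc, the partner of CLOCK, read 58.7 and 45.1 CPM at CT12, against 67.2 and 47.3 CPM at CT6. The fitted changes of per, cry and cyc were -0.23, -0.23 and -0.14, and each took the other sign without some library of the comparison.

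**Figure D4:**
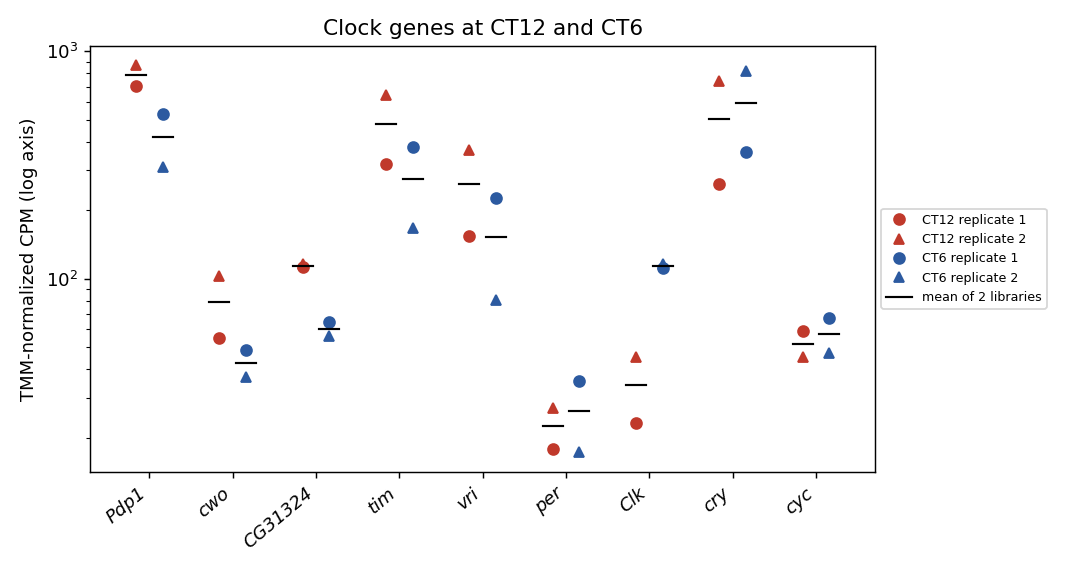
TMM-normalized CPM (log axis) of 9 clock genes in each library, CT12 left of CT6, with circles for replicate 1, triangles for replicate 2 and bars at the mean of 2 libraries. Pdp1, cwo and CG31324 are higher in both CT12 libraries and Clk is lower in both, while tim, vri, per, cry and cyc overlap.

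Transcripts that cycle in wild-type heads gave 9 tested genes of 13 listed. Of these, 1 was higher and 2 lower at CT12 without overlap (11.1% and 22.2%, beside 10.3% and 12.2% of all genes tested). CG31324 is named Cipc in RefSeq, after the CLOCK-interacting repressor of mammals (FBgn0051324, 3R 26106868 to 26130674). It read 112 and 116 CPM at CT12, against 64.6 and 56.3 CPM at CT6, a log2 change of 0.92 ± 0.27, and this value lay between 0.83 and 1.02 whichever library was left out. CG17777, an uncharacterized short gene, read 36.4 and 54.4 CPM at CT12, against 108 and 108 CPM at CT6, a log2 change of -1.25 ± 0.34. Inos, the enzyme that opens inositol synthesis, read 254 and 235 CPM at CT12, against 365 and 365 CPM at CT6. In both of these the CT6 duplicates were nearly equal and the CT12 libraries lay below them. Ugt35B1, a glucuronosyltransferase of heads, was low in 3 libraries, at 2.46 and 2.07 CPM at CT12, against 2.24 and 10.4 CPM at CT6.

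Among 15 tested kinases, phosphatases and turnover factors of the clock, fitted log2 changes lay between -0.30 and 0.25, with a median of -0.03. Without overlap, 0 were higher and 2 lower (0% and 13.3%, beside 10.3% and 12.2% of all genes tested). The lower ones were ctrip, a ubiquitin ligase of the CLOCK protein, at 19.9 and 22.6 CPM at CT12, against 26.3 and 25.9 CPM at CT6, and tws, a regulatory subunit of protein phosphatase 2A, at 231 and 237 CPM at CT12, against 268 and 239 CPM at CT6. nmo, the kinase nemo, read 181 and 262 CPM at CT12, against 229 and 152 CPM at CT6, and overlapped. Of the 6 genes that promote PER translation, such as tyf and Atx2, 0 separated the times, beside 22.5% of all genes tested. tyf read 67.5 and 106 CPM at CT12, against 41.9 and 73.6 CPM at CT6. Of the 12 subunits of the Brahma complex, the complex mor belongs to, osa was the one without overlap (8.33% lower, beside 12.2% of all genes tested). It read 25.2 and 30.9 CPM at CT12, against 38.7 and 34.4 CPM at CT6. Bap111 had a low value in 3 libraries and a high one in CT6 replicate 1, at 2.39 and 2.71 CPM at CT12, against 15.3 and 2.52 CPM at CT6.

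Among 19 tested neuropeptide genes listed for clock neurons, 4 were higher at CT12 without overlap and 1 was lower (21.1% and 5.26%, beside 10.3% and 12.2% of all genes tested). The median log2 change was 0.10, ranging from -0.09 without CT12 replicate 2 to 0.47 without CT12 replicate 1. spab read 282 and 348 CPM at CT12, against 173 and 216 CPM at CT6, a log2 change of 0.70 ± 0.29 at an unadjusted p under 0.05. AstC, the allatostatin C precursor of dorsal clock neurons, was the steadiest of the strongly expressed peptides, at 4357 and 4403 CPM at CT12, against 3901 and 3344 CPM at CT6. ITP, the ion transport peptide of lateral neurons, read 2018 and 1764 CPM at CT12, against 904 and 1706 CPM at CT6. CT6 replicate 1 was the low library for ITP, and CT6 replicate 2 lay close to the CT12 values.

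Proc, the proctolin precursor, was the lower peptide of the list, at 264 and 196 CPM at CT12, against 856 and 303 CPM at CT6. Its log2 change was -1.33, and -0.40 without CT6 replicate 1. Crz, corazonin, was outside that list and was among the most abundant genes with lower non-overlapping values. It read 5290.4 and 528 CPM at CT12, against 5827 and 11314 CPM at CT6. CT12 replicate 2 was low while CT12 replicate 1 lay just under CT6 replicate 1, and the log2 change was -1.56 ± 1.19. It was -3.99 without CT12 replicate 1 and -0.70 without CT12 replicate 2. Dh31, a diuretic hormone of dorsal clock neurons, read 7119 and 4716 CPM at CT12, against 6803 and 4251 CPM at CT6, and overlapped. Trissin, whose precursor is made by a subset of lateral neurons, read 9.03 and 1674 CPM at CT12, against 679.5 and 420.3 CPM at CT6, and CT12 replicate 1 was far below the others.

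Receptors for these peptides were spread in both directions. At CT12, 4 of 19 were higher and 4 lower without overlap (21.1% each, beside 10.3% and 12.2% of all genes tested). TkR99D, a tachykinin receptor, read 15.7 and 16.1 CPM at CT12, against 6.37 and 6.71 CPM at CT6, a log2 change of 1.28 ± 0.43. Its duplicates differed by less than 1 CPM at each time. CNMaR, the receptor of the CNMamide peptide, read 78.9 and 46.9 CPM at CT12, against 23.9 and 45.0 CPM at CT6, a log2 change of 0.87, and 0.48 without CT6 replicate 1. Pdfr, through which PDF synchronizes the clock network, was lower at the end of the subjective day, with 63.6 and 79.0 CPM at CT12, against 137 and 101 CPM at CT6. The log2 change of Pdfr was -0.74 ± 0.28, and -0.50 without CT6 replicate 1. sNPF-R, the receptor of short neuropeptide F, read 19.9 and 22.2 CPM at CT12, against 43.0 and 26.0 CPM at CT6. TkR99D, CNMaR and Pdfr were at an unadjusted p under 0.05. The list median of 0.06 took the value 0.48 without CT6 replicate 1 and -0.32 without CT6 replicate 2.

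Of 14 genes for the processing and release of peptides, 13 had a fitted change below 0 (5159 of all 9999 genes), with a median of -0.11. None (0) of them was at an unadjusted p under 0.05, and 11 of the 14 overlapped. Without overlap, 0 were higher and 3 lower (0% and 21.4%, beside 10.3% and 12.2% of all genes tested). svr, a carboxypeptidase that trims peptide precursors, read 925 and 925 CPM at CT12, against 997 and 1302 CPM at CT6. dimm, the transcription factor that sets up the peptide-secreting state, read 27.2 and 22.3 CPM at CT12, against 27.4 and 36.2 CPM at CT6. amon, the prohormone convertase, read 417 and 503 CPM at CT12, against 898 and 432 CPM at CT6, with CT6 replicate 1 set apart from 3 libraries of like level.

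Of 19 heat-shock chaperones tested, edgeR called 0, and 4 had an unadjusted p under 0.05, all lower. A fitted change below 0 was found in 18 (5159 of all 9999 genes), 9 were lower at CT12 without overlap (47.4%, against 12.2% of all genes tested), 0 were higher and 10 overlapped. The list median was -0.56, against -0.01 for all genes tested. Hsp22, a small chaperone of mitochondria, read 2095 and 2497 CPM at CT12, against 3547 and 3244 CPM at CT6, a log2 change of -0.56 ± 0.24. Hsp23, a small chaperone of the cytosol, read 2500.0 and 4203 CPM at CT12, against 5109.9 and 4826 CPM at CT6, and Hsp26 read 4419 and 6150.1 CPM at CT12, against 7444 and 6849 CPM at CT6. DnaJ-1, a cochaperone of Hsp70, read 686 and 673 CPM at CT12, against 994 and 902 CPM at CT6. The duplicates of DnaJ-1 lay close together at both times.

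The inducible Hsp70 copies followed 1 library more than the time. Hsp70Ba read 3423 and 4019 CPM at CT12, against 9669.6 and 4103 CPM at CT6, and Hsp70Bc read 301 and 412 CPM at CT12, against 873 and 446 CPM at CT6. The copies are nearly identical and the assignment of their shared reads is uncertain, so their values are not independent. CT6 replicate 1 was the highest library for both, and the other 3 libraries were much closer together. Without it the log2 changes were -0.14 for Hsp70Ba and -0.32 for Hsp70Bc, in place of -0.89 and -0.89. For Hsp22 the value without that library was -0.50, close to the full value. The list median without it was -0.11. Hsp83, the Hsp90 of flies, overlapped, at 4162 and 5098 CPM at CT12, against 8472 and 4559 CPM at CT6.

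**Figure D5:**
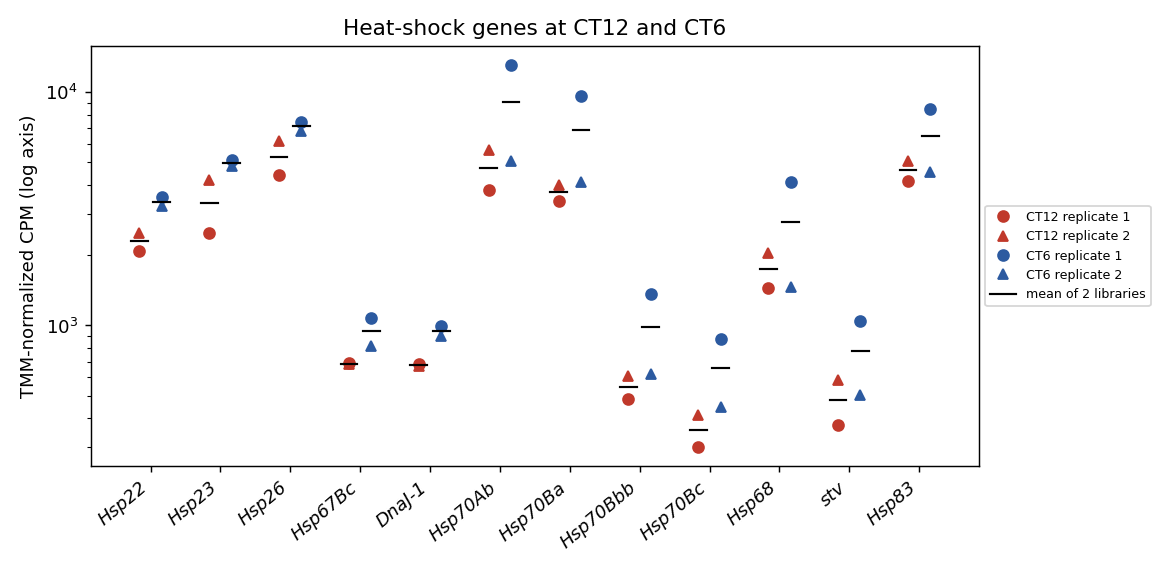
TMM-normalized CPM (log axis) of 12 heat-shock genes in each library, CT12 left of CT6, with circles for replicate 1, triangles for replicate 2 and bars at the mean of 2 libraries. Hsp22, Hsp23, Hsp26, Hsp67Bc and DnaJ-1 are lower in both CT12 libraries, while for the Hsp70 copies, Hsp68 and stv CT6 replicate 1 lies above 3 libraries that are closer together.

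Of 14 genes of the unfolded protein response, which serves the endoplasmic reticulum, 11 had a fitted change below 0 (5159 of all 9999 genes). Their median was -0.24, and 2 were lower at CT12 without overlap (14.3%, beside 12.2% of all genes tested). Hsc70-3, the BiP chaperone, read 768 and 859 CPM at CT12, against 1852 and 886 CPM at CT6. Gp93, an Hsp90 relative of that compartment, read 185 and 244 CPM at CT12, against 443 and 241 CPM at CT6, and overlapped. In both genes CT6 replicate 1 was again the highest library.

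Genes of membrane excitability gave few separations. Among 18 potassium channel genes, 1 was higher and 1 lower at CT12 without overlap (5.56% each, beside 10.3% and 12.2% of all genes tested). KCNQ, a voltage-gated channel of the M-current family, read 4.34 and 11.2 CPM at CT12, against 23.6 and 15.5 CPM at CT6, a log2 change of -1.33 ± 0.55. Task6, a leak channel, was the higher one, at 70.2 and 71.4 CPM at CT12, against 67.6 and 64.6 CPM at CT6. Of 13 genes for sodium, calcium and pacemaker channels, 0 separated the times (22.5% of all genes tested did), and their median log2 change was -0.12. NaCP60E, a sodium channel relative, read 145 and 137 CPM at CT12, against 149 and 90.2 CPM at CT6. Of 24 receptors for GABA, glutamate and acetylcholine, 1 was higher and 2 were lower without overlap. These shares were 4.17% and 8.33%, beside 10.3% and 12.2% of all genes tested. Lcch3, a GABA receptor subunit, read 282 and 277 CPM at CT12, against 276 and 213 CPM at CT6.

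Among 18 genes of the synaptic vesicle machinery, 3 were higher and 4 lower at CT12 without overlap (16.7% and 22.2%, beside 10.3% and 12.2% of all genes tested). Syx1A, the syntaxin of the vesicle fusion complex, read 1078 and 776 CPM at CT12, against 714 and 628 CPM at CT6. Syt1, the calcium sensor of release, read 632 and 585 CPM at CT12, against 989 and 667 CPM at CT6, with CT6 replicate 1 highest. Of 14 genes of transmitter synthesis and transport, 2 were higher without overlap and 3, namely SerT, Trh and Vmat, were lower. These shares were 14.3% and 21.4%, beside 10.3% and 12.2% of all genes tested. VAChT, which loads acetylcholine into vesicles, read 59.7 and 60.7 CPM at CT12, against 45.7 and 40.9 CPM at CT6. VGAT, which loads GABA, had 50.4 and 53.7 CPM in the CT12 libraries and 41.2 and 43.2 CPM in the CT6 libraries. Gad1, the enzyme of GABA synthesis, did not separate the times, at 785 and 451 CPM at CT12, against 714 and 551 CPM at CT6.

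Cyclic AMP carries the PDF signal inside clock neurons, and 17 genes of that pathway were tested. Of these, 3 were higher at CT12 and 2 lower without overlap (17.6% and 11.8%, beside 10.3% and 12.2% of all genes tested). The adenylate cyclases differed among themselves. Ac76E read 19.2 and 23.5 CPM at CT12, against 38.2 and 29.3 CPM at CT6. Ac78C read 5.40 and 17.5 CPM at CT12, against 4.02 and 4.81 CPM at CT6, with CT12 replicate 2 apart from the other 3 libraries. Pka-C3, a catalytic subunit of protein kinase A, read 55.5 and 50.6 CPM at CT12, against 106 and 60.7 CPM at CT6. CrebB, the transcription factor that responds to cyclic AMP, read 9.20 and 15.4 CPM at CT12, against 8.72 and 7.28 CPM at CT6.

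Activity-regulated genes had 9 of 11 fitted changes below 0 (5159 of all 9999 genes), with a median of -0.21. Arc1, a capsid-forming relative of the mammalian activity gene Arc, read 39.9 and 124 CPM at CT12, against 165 and 345 CPM at CT6, a log2 change of -1.64 ± 0.58 at an unadjusted p under 0.05. It ranged from -2.68 without CT12 replicate 2 to -1.01 without CT6 replicate 2. The duplicates were far apart at both times, and CT12 replicate 2 lay nearer to CT6 replicate 1 than to its own replicate on the linear scale. kay, the fly Fos, read 52.7 and 78.0 CPM at CT12, against 161 and 38.5 CPM at CT6, and overlapped. Among 16 genes linked to the daily remodelling of clock neuron axons, 1 was higher and 3 lower without overlap. These shares were 6.25% and 18.8%, beside 10.3% and 12.2% of all genes tested. Fas2, the adhesion protein fasciclin II, read 87.9 and 71.8 CPM at CT12, against 162 and 73.0 CPM at CT6.

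Nuclear genes of oxidative phosphorylation differed by a small amount in the median, with larger changes in single genes. Of 46 tested nuclear genes of oxidative phosphorylation, 39 had a fitted change above 0 (84.8%, beside 48.4% of all genes tested), with a median of 0.13. Without overlap, however, 0 were higher and 3 lower (0% and 6.52%, beside 10.3% and 12.2% of all genes tested). Without CT6 replicate 1 the median was -0.05, and with the trend of each library with transcript length removed it was 0.01. Of the 7 genes with a fitted change below 0, SdhB, the iron-sulphur subunit of succinate dehydrogenase, had the lowest. It read 55.8 and 73.2 CPM at CT12, against 236 and 81.2 CPM at CT6. CT6 replicate 1 was far above the other 3 libraries. SdhA, the flavoprotein of the same enzyme, had 353 and 471 CPM in the CT12 libraries and 663 and 452 CPM in the CT6 libraries. Of 12 mitochondrially encoded genes tested, 11 were above 0 (91.7%, beside 48.4% of all genes tested). Without overlap, 3 were higher (25%, beside 10.3% of all genes tested). Their median log2 change was 0.50. That median was -0.01 without CT12 replicate 1, 0.82 without CT12 replicate 2 and 0.24 with the length trend removed. COX1, a cytochrome oxidase subunit, read 472 and 342 CPM at CT12, against 339 and 232 CPM at CT6. Polyadenylated RNA of mitochondria made up between 0.0693% and 0.154% of counts in the 4 libraries.

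Of 83 tested genes for cytoplasmic ribosomal proteins, 48 were above 0 (57.8%, beside 48.4% of all genes tested). Of these 83 genes, 0 separated the times (22.5% of all genes tested did). Proteasome genes were balanced too, with 18 of 35 above 0. Of 12 insulin pathway genes, edgeR called 0, and 4 were higher and 0 lower at CT12 without overlap. These shares were 33.3% and 0%, beside 10.3% and 12.2% of all genes tested. Thor, the translation repressor 4E-BP of the insulin pathway, read 25.2 and 48.5 CPM at CT12, against 15.6 and 14.7 CPM at CT6, a log2 change of 1.28 ± 0.49 at an unadjusted p under 0.05 and 0.74 without CT12 replicate 2. Argk, arginine kinase, which buffers ATP in neurons and was named after its values were seen, was lower in both later libraries, with 3905 and 3353 CPM at CT12, against 5296 and 7089.7 CPM at CT6.

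Further genes of smallest p with lower values at CT12 belonged to no common list. w, the ABC transporter white, which is also the usual marker of fly transgenes, read 17.4 and 10.7 CPM at CT12, against 51.3 and 35.2 CPM at CT6. Best1, a chloride channel of the bestrophin family, read 13.2 and 16.7 CPM at CT12, against 43.3 and 33.6 CPM at CT6. Cerk, ceramide kinase, read 33.4 and 41.8 CPM at CT12, against 119 and 57.1 CPM at CT6. Obp19d, an odorant-binding protein, read 1.98 and 0.323 CPM at CT12, against 130.1 and 9.66 CPM at CT6. In Cerk and Obp19d the distance depended on CT6 replicate 1, and without it the log2 changes were -0.60 and -3.05, in place of -1.23 and -5.84. The uncharacterized CG9801 had the same order, at 24.8 and 30.2 CPM at CT12, against 79.4 and 39.9 CPM at CT6, and a log2 change of -0.54 without that library.

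Markers of other cell types varied between genes and between libraries. Of 19 photoreceptor markers tested, 3 were higher and 2 lower at CT12 without overlap (15.8% and 10.5%, beside 10.3% and 12.2% of all genes tested). Their summed level was 367 and 330.2 CPM at CT12, against 323 and 194 CPM at CT6. Rh2, the opsin of the ocelli, was among the most abundant genes at least 2-fold higher at CT12, at 29.8 and 123 CPM at CT12, against 2.21 and 12.1 CPM at CT6. Arr2, the main arrestin of the eye, read 17.2 and 87.8 CPM at CT12, against 16.4 and 7.62 CPM at CT6, and ninaB, a carotenoid-cleaving enzyme of the visual pigment pathway, read 3.45 and 1.81 CPM at CT12, against 17.6 and 9.0 CPM at CT6, a log2 change of -2.33 ± 0.71. Rh4, an opsin of inner photoreceptors, was almost confined to CT12 replicate 1, at 52.2 and 0.581 CPM at CT12, against 0.724 and 0 CPM at CT6. Of 12 glial markers, 1 (Gat) was higher without overlap (8.33%, beside 10.3% of all genes tested). The 12 markers summed to 327 and 197 CPM at CT12, against 169 and 170.2 CPM at CT6. The glial glutamate transporter Eaat1 read 28.7 and 69.2 CPM at CT12, against 13.4 and 31.3 CPM at CT6. Of 10 hemocyte markers tested, NimC4 was the one higher without overlap (10%, beside 10.3% of all genes tested). All 11 hemocyte markers listed summed to 285 and 144 CPM at CT12, against 209.8 and 181 CPM at CT6. Hml, the hemolectin of hemocytes, was at 25 and 0 CPM at CT12, against 4.02 and 7.57 CPM at CT6. Of 10 fat body markers 6 were tested. All 10 listed summed to 95.3 and 64.0 CPM at CT12, against 115.4 and 65.7 CPM at CT6. The lipase bmm read 60.9 and 53.5 CPM at CT12, against 101 and 51.5 CPM at CT6. Of 10 muscle markers 3 were tested. All 10 listed summed to 2.39 and 2.26 CPM at CT12, against 2.39 and 1.71 CPM at CT6. Lsp2, Fbp1 and Fbp2 of the fat body and Mhc and Act88F of muscle did not pass the filter on low counts. CT12 replicate 1 had the highest sums for glia, photoreceptors and hemocytes, and the part of such cells in the differences above was not tested.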

How the data were processed

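Polyadenylated RNA of sorted fly clock neurons was compared between CT12 (2 libraries) and CT6 (2 libraries), grouped by the circadian time in the sample titles. The deposited gene tables hold, per the file headers, an expected (estimated) count and a TPM value for 17868 genes named by symbol, with transcript lengths. Estimated counts were deposited without normalization, and between 12.8% and 14.6% of values in the 4 libraries were not whole numbers. The submitters' processing notes name DRAGEN, Salmon and the build dm6; what each did, the annotation and any strand setting were not given in the sources used here. Control libraries and chromatin accessibility were not analysed here.

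Counts were rounded and filtered with edgeR's filterByExpr (minimum count 10, times as groups), which kept 9999 of 13499 genes with a count. After TMM scaling, edgeR 4.0.16 under R 4.3.3 fitted its quasi-likelihood model to the 8 libraries with circadian time as the factor, which left 4 residual degrees of freedom, and the contrast CT12 minus CT6 was adjusted by Benjamini-Hochberg at 0.05. The median biological coefficient of variation was 0.31 and the prior degrees of freedom 5.4. The script was tested on simulated data. Tests were two-sided. Standard errors belong to the fitted log2 changes.

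The comparison and the gene lists were chosen with earlier results of these data known. The lists for serotonin and dopamine genes were added after single genes had been seen. Named were mor and the core clock genes, the 10 genes of smallest p in each direction without overlap and with a mean of at least 20 CPM, the 5 most abundant at least 2-fold apart without overlap in each direction, and up to 3 members of smallest p per list. Further members, such as Dsk, Lk, Orcokinin, Trissin, Dh31, 5-HT1A and the genes called by DESeq2 alone, were named after their values were seen. Trh was matched to RefSeq's Trhn. Gene coordinates follow Ensembl release 115 (BDGP6.54), which need not be the annotation the authors used.

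Alternatives were DESeq2 1.42.0, limma-voom (limma 3.58.1), RLE scaling, dropping the filter or requiring 5 CPM in 2 libraries, a robust prior, the deposited TPM on a log2 scale (pseudocount 1 or 0.1), a larger prior count (5), the 4 libraries alone, a replicate block, removal of each library's trend with transcript length, removal of mitochondrial and ribosomal RNA genes, and leaving out each library. Figures were drawn with matplotlib 3.10.9.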

Additional observations from a re-analysis of the deposited data

How the results depend on the processing

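Across the 14 alternatives other than leaving out a library that gave values for single genes, none of the 42 named genes followed changed sign. Of the counts between CT12 and CT6, those that moved by over 1.5 times are given as higher and then lower at CT12. Without a filter on low counts, over 13499 genes and with an infinite prior, edgeR called 24 and 26 genes, and 219 and 270 had an unadjusted p under 0.05. A filter of 5 CPM in 2 libraries left 7373 genes, with 47 and 80 at that p and 74 and 95 at least 2-fold apart without overlap. DESeq2 called 4 and 5. On log2 TPM with a pseudocount of 1, 116 and 119 were at least 2-fold apart without overlap. With the 4 libraries only, 61 genes were higher at the unadjusted p.

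Replicate numbers did not pair the libraries: the correlation over genes of replicate 1 minus replicate 2 between CT12 and CT6 was -0.14. A replicate block on all 8 libraries called 0 and 0 genes, with 79 and 109 at the unadjusted p. The block on 4 libraries called 2 genes lower (Lk and Obp19d), with 46 and 58 at that p. A crossed block, added after the data were seen, called 1 and 1.

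Leaving out each library gave between 0 and 1 called genes higher and between 0 and 1 lower. These calls were Obp56h without CT12 replicate 1, Trissin without CT12 replicate 2, and E(spl)m6-BFM without CT18 replicate 1 or 2. Genes at the unadjusted p ranged from 78 to 341 higher and from 88 to 476 lower, with the most without CT6 replicate 2, and those at least 2-fold apart from 739 to 1153 higher and from 804 to 1311 lower, where a lone library is easier to separate. The sign reversed for per without CT12 replicate 1 or CT6 replicate 1 (log2 changes from -0.657 to 0.377), cry without CT12 replicate 1 or CT6 replicate 2 (-1.18 to 0.488), cyc without CT12 replicate 2 or CT6 replicate 1 (-0.368 to 0.134) and mor without CT6 replicate 1 (-0.818 to 0.64). The cause of these shifts was not tested. Of 10 list medians followed, those of glial markers moved to 0.428 and 0.391 on log2 TPM with pseudocounts of 1 and 0.1, and to -0.263 without CT12 replicate 1, in place of 0.883. The median for peptide processing and release ranged from -0.224 to -0.0467 over the libraries left out, and those for heat-shock, receptor and oxidative phosphorylation genes are given with the results.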

Other observations

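Long noncoding RNAs were not treated in the comparison above. Of 567 tested, 83 were higher at CT12 without overlap (14.6%) and 71 lower (12.5%), beside 10.3% and 12.2% of all genes tested. lncRNA:CR31451, named lncRNA:mimi in RefSeq, read 3816 and 2778 CPM at CT12, against 1947 and 2132 CPM at CT6, a log2 change of 0.69 ± 0.25 with an edgeR adjusted p of 1. Without a stated strand setting, its reads cannot be separated from those of any overlapping gene. The homeodomain factor pros, named after its values were seen, was also higher in both CT12 libraries, with 2459.9 and 1579.6 CPM at CT12, against 1244 and 1222 CPM at CT6.

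Immune effectors were mostly low. Of 22 listed, 11 were expressed well enough to be tested. Of these, 10 had a fitted change below 0 (5159 of all 9999 genes), and 2 were lower without overlap (18.2%, beside 12.2% of all genes tested). Dro, the antimicrobial peptide drosocin, read 0.342 and 0 CPM at CT12, against 3.19 and 1.09 CPM at CT6. The ecdysone response held 11 tested genes with 0 outside overlap, beside 22.5% of all genes tested. Among 15 tested genes of oxidative stress and detoxification, 1 was higher and 2 were lower without overlap. These shares were 6.67% and 13.3%, beside 10.3% and 12.2% of all genes tested. In that list cnc, the fly Nrf2, read 23.8 and 17.6 CPM at CT12, against 25.3 and 23.8 CPM at CT6. Of 6 Kenyon cell markers, 1 was higher without overlap (16.7%, beside 10.3% of all genes tested). It was toy, a Pax6 relative that is also expressed outside those cells, with 231 and 328 CPM at CT12, against 164 and 227 CPM at CT6.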
